A study of Mus musculus with 6 samples.

Results

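Gfi1, its paralogue Gfi1b and the chromatin enzymes they recruit were measured in mouse LSK cells, a sorted bone marrow population that lacks lineage markers, carries Sca-1 and Kit and contains the blood-forming stem cells with their earliest progeny. The set comprised 10 genes: Gfi1, Gfi1b, Kdm1a, Rcor1, Rcor3, Hdac1, Hdac2, Hdac3, Ehmt2 and Runx1t1. Every probe set annotated to exactly 1 of these symbols was taken, which gave 15 of the 22626 probe sets on the array, for 10 of 12393 named genes. The study hybridised RNA of LSK cells from Gfi1 knockout mice (3 samples) and from Gfi1 wild-type mice (3 samples) to 1 single-colour Affymetrix array each, with samples numbered 5, 7 and 8 in each group. The labels give no strain, age, knockout allele or number of mice per sample, so the scatter of these 3 samples per group may be partly technical. Each p-value, SE and interval of a fitted difference rests on that scatter only in part. The limma fit draws each probe set's variance towards a trend over all probe sets tested. All values are the authors' deposited MAS5 signals in arbitrary scanner units, and each difference is the knockout-labelled mean minus the wild-type mean of log2(signal + 16), a scale that understates the change of dim probe sets.

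Gfi1 and Gfi1b are zinc finger repressors that bind DNA at a core AATC motif and share a short amino-terminal SNAG domain. Through that domain they recruit the lysine demethylase LSD1, encoded by Kdm1a, which removes activating methyl marks from histone tails, together with the scaffold protein CoREST, encoded by Rcor1, and the deacetylases HDAC1 and HDAC2. Gfi1 also works with the histone methyltransferase G9a, encoded by Ehmt2, and with HDAC3 and the ETO corepressor encoded by Runx1t1. In blood formation Gfi1 preserves stem cells and guides granulocyte and lymphoid development, whereas Gfi1b is required for erythroid cells and platelets. Both repressors are known to bind regulatory DNA of the Gfi1 and Gfi1b genes, so that each can restrain itself and the other.

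The 250 bases before the annotated start of Gfi1 and of Gfi1b are shown because the expression of both genes in the knockout-labelled cells is described next. They are RefSeq sequences of the GRCm38.p6 build, on the gene's own strand (minus for both), and capitals mark AATC or its reverse complement GATT. The Gfi1 stretch lies at chr5:107725806-107726055 and the Gfi1b stretch at chr2:28621983-28622232.
Gfi1: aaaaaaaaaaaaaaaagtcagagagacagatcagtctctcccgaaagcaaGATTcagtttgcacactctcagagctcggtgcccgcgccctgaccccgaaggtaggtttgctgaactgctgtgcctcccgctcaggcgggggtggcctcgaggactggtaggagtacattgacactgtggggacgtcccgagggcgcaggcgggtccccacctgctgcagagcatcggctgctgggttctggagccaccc
Gfi1b: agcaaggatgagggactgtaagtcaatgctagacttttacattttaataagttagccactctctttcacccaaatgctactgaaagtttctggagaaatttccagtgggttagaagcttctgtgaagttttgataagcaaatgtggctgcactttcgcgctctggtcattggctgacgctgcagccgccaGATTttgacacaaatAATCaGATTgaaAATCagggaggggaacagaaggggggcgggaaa
The Gfi1b stretch held 4 matches, beginning 60, 45, 40 and 33 bases before the start, and the Gfi1 stretch held 1, beginning 200 bases before it. The stretch before the second annotated start of Gfi1 held 0. Among 32817 promoter stretches of the same length 69.0% held at least 1 match, and 7.04% held 4 or more, a count chosen after the Gfi1b sequence was seen. The longer form AAATCA was in the Gfi1b stretch 1 time, in neither Gfi1 stretch and in 12.4% of all. The still longer TAAATCAC, which contains AATC, was in neither gene's stretches and in 0.515% of all. Both forms were searched on both strands. A match is a description of letters and not of binding.

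Of the 15 probe sets, 12 (from 9 genes) were bright enough to be tested, and 0 of the 12 passed the threshold of limma adjusted p under 0.05 in either direction. Among all 13575 probe sets tested, 1.44% were higher and 2.19% lower, 3.63% in either direction. At an unadjusted p under 0.05, 1 of the 12 was higher (Gfi1) and 2 were lower (both Rcor1), against 1232 higher and 1429 lower of all probe sets tested. The median difference of the 12 was 0.12, with 8 above 0 and 4 below 0, and the median over all probe sets tested was -0.01. All 3 knockout-labelled arrays lay below all 3 wild-type arrays for 2 of the 12, both of Rcor1, and above them for 0. Such separation was seen lower for 12.1% and higher for 11.9% of all probe sets tested.

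The sample titles give a number without its meaning. Because samples with the same number deviated together, at correlations of only 0.159 to 0.238, the fit was also made with that number as a block. In it 1 of the 12 probe sets passed and was lower, the brightest of Rcor1, where 3.53% of all probe sets were lower and 2.36% higher. Leaving out single arrays gave 1 call on 2 further occasions: Gfi1 was higher without knockout-labelled array 5, and the same Rcor1 probe set was lower without wild-type array 5.

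**Figure D1:**
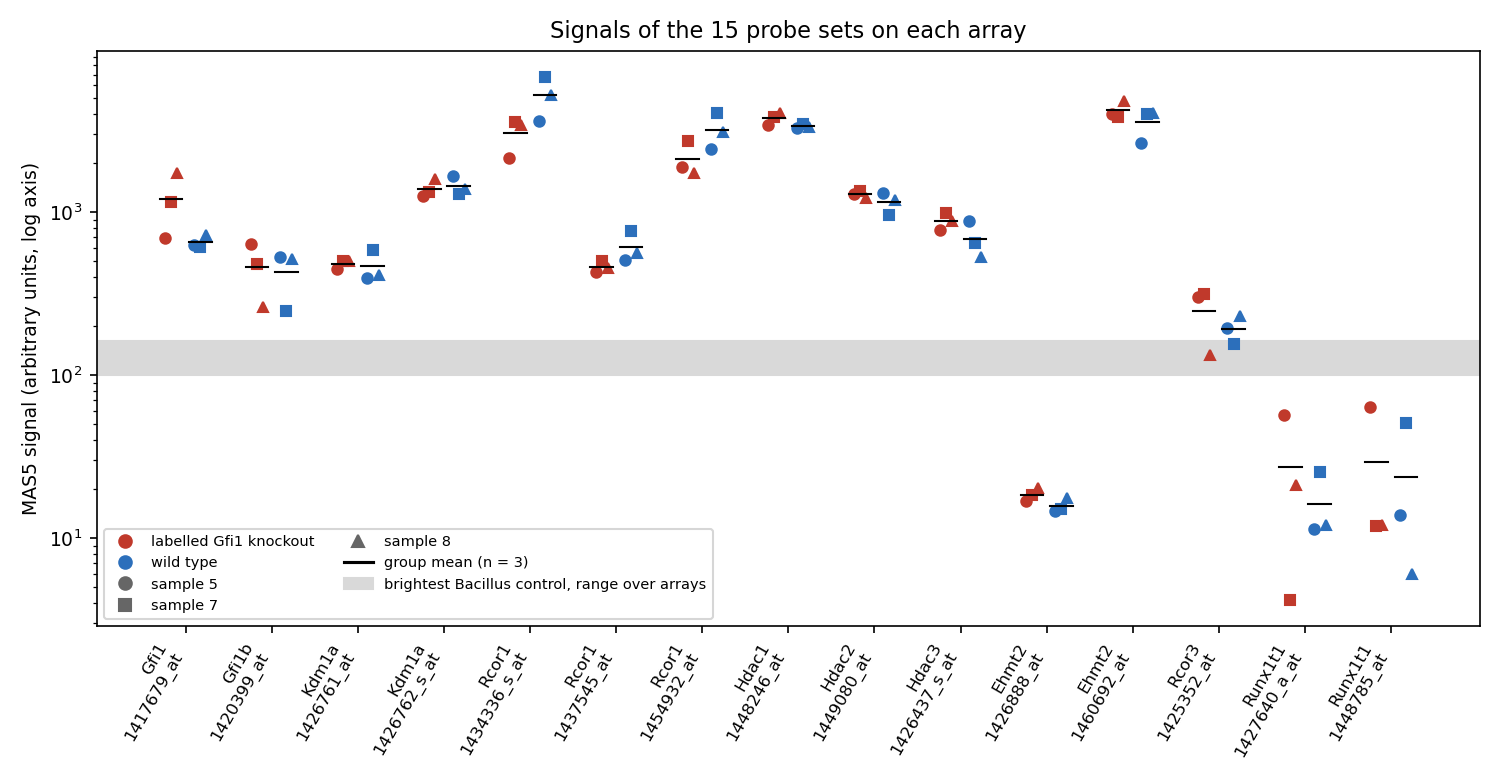
Signal of each of the 15 probe sets on each array (log axis), with knockout-labelled arrays in red to the left of wild-type arrays in blue, symbols for sample numbers and lines for group means (n = 3 each). Gfi1 spreads over the knockout-labelled arrays between 692 and 1737, each Rcor1 probe set has a lower mean on them, and Runx1t1 and 1 Ehmt2 probe set lie under the grey band of the brightest Bacillus controls (100.2 to 161.6).

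Gfi1 itself, whose loss defines the knockout group, was not lower on the arrays that carry that label. Its only probe set, 1417679_at, stands for a gene at chr5:107716655-107725805 (GRCm38.p6, as are the positions of the other genes). The place of each probe set within its gene is not used here. The signals were 692, 1163 and 1737 on knockout-labelled arrays 5, 7 and 8, against 632, 608 and 723 on wild-type arrays 5, 7 and 8. The wild-type arrays lay close together, with a coefficient of variation of 9.24%, and the knockout-labelled arrays were spread over 43.7%. Array 5 of the knockout-labelled group lay inside the range of the wild-type arrays, and the other two lay above it. Gfi1 averaged 1198 ± 523 on knockout-labelled arrays and 654 ± 60.4 on wild-type arrays (SD, n = 3 each). The fitted difference was 0.76 ± 0.28 (SE) with a 95% interval of 0.16 to 1.37 (limma adjusted p = 0.148, and 0.0835 with the block). Within the numbered pairs the difference was 0.13 for number 5, 0.92 for number 7 and 1.25 for number 8. Without knockout-labelled array 5 it was 1.10 (limma adjusted p = 0.0354), and without knockout-labelled array 8 it was 0.45 (limma adjusted p = 0.466). The labels do not say which stretch of Gfi1 was removed, and a probe set outside that stretch would not check them. Every direction given here rests on the labels.

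Gfi1b, the paralogue that takes over the repressor role in erythroid and megakaryocytic cells, varied as much within the groups as between them. Its probe set, 1420399_at (gene at chr2:28609450-28621982), had 638, 481 and 261 on knockout-labelled arrays 5, 7 and 8, against 529, 247 and 518 on wild-type arrays 5, 7 and 8. The 2 dimmest arrays were knockout-labelled 8 and wild-type 7, and knockout-labelled array 5 was the brightest, so that the groups overlapped in part. The difference was 0.08 ± 0.35 (SE), with a 95% interval of -0.67 to 0.83 (limma adjusted p = 0.936). The pairs went in both directions, at 0.26 and 0.92 for numbers 5 and 7 and at -0.95 for number 8. The sign of the fitted difference also turned without knockout-labelled array 5 (-0.19) and without wild-type array 7 (-0.27).

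Among the knockout-labelled arrays the order of Gfi1b was the reverse of that of Gfi1: array 8 had the most Gfi1 and the least Gfi1b, and array 5 the least Gfi1 and the most Gfi1b. On the wild-type arrays Gfi1 ranged only from 608 to 723 while Gfi1b ranged from 247 to 529, and the array dimmest in one was also dimmest in the other. Over the 6 arrays the log2 signals of Gfi1 and Gfi1b correlated at -0.37, and their deviations from the group means at -0.60. Hdac1 followed Gfi1 most closely among the members tested, at 0.95 over the 6 arrays and 0.90 for the deviations. These correlations share the same 6 arrays and their scaling and are given as descriptions.

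**Figure D2:**
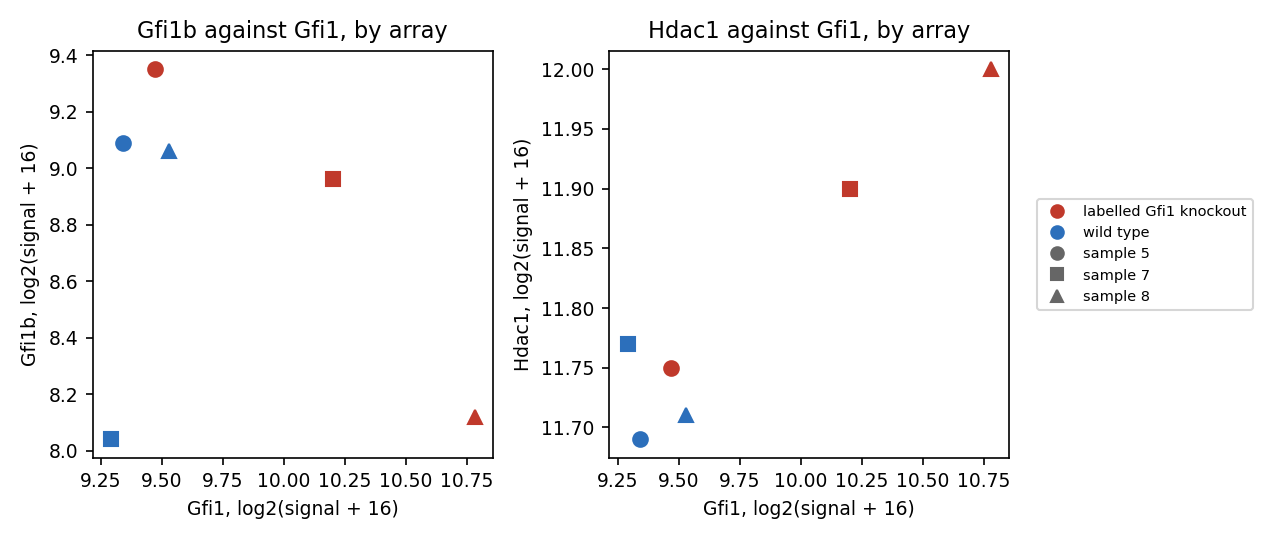
Log2(signal + 16) of Gfi1b (left) and Hdac1 (right) against that of Gfi1 on each array, with knockout-labelled arrays in red, wild-type arrays in blue and symbols for sample numbers. Knockout-labelled arrays 7 and 8 stand apart by their Gfi1 signal, and array 8 has the highest Gfi1 and the highest Hdac1 signal of the 6 arrays and a low Gfi1b signal.

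Kdm1a (chr4:136550533-136602787), which encodes the demethylase LSD1, did not differ between the groups beyond the spread of the arrays. Its brighter probe set, 1426762_s_at, had 1256, 1331 and 1608 on knockout-labelled arrays 5, 7 and 8, against 1679, 1291 and 1381 on wild-type arrays 5, 7 and 8. The dimmer one, 1426761_at, had 447, 502 and 504 on knockout-labelled arrays, against 394, 590 and 410 on wild-type arrays. In each of the probe sets a wild-type array was the brightest of the 6 and the groups overlapped. The differences were -0.05 ± 0.19 and 0.08 ± 0.24 (SE), with 95% intervals of -0.46 to 0.36 and -0.43 to 0.58 (limma adjusted p = 0.924 and 0.905). The probe sets did not vary together over the arrays, with a correlation of -0.41.

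Rcor1 (chr12:111039367-111115902), the CoREST scaffold that holds LSD1 and the deacetylases together, was the member with the lowest difference, and it had 3 probe sets. The brightest, 1434336_s_at, had 2150, 3567 and 3433 on knockout-labelled arrays 5, 7 and 8, against 3635, 6767 and 5241 on wild-type arrays 5, 7 and 8. Its mean was 3050 ± 782 on knockout-labelled arrays and 5214 ± 1570 on wild-type arrays (SD, n = 3 each), and the groups did not overlap, although knockout-labelled array 7 and wild-type array 5 lay close together. The difference was -0.76 ± 0.24 (SE), a ratio of 0.590, with a 95% interval of -1.28 to -0.24. Without a block it missed the threshold (limma adjusted p = 0.1). In the blocked fit the same difference had an SE of 0.14 and passed (limma adjusted p = 0.0172). In each pair the knockout-labelled sample was lower, with differences of -0.75, -0.92 and -0.61 for numbers 5, 7 and 8.

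The other Rcor1 probe sets had the same sign and smaller differences. Probe set 1454932_at had 1883, 2720 and 1744 on knockout-labelled arrays 5, 7 and 8, against 2431, 4075 and 3085 on wild-type arrays 5, 7 and 8. Here knockout-labelled array 7 lay above wild-type array 5, so that the groups overlapped, and the difference was -0.59 ± 0.22 (SE; limma adjusted p = 0.162, and 0.0598 with the block). Probe set 1437545_at had 430, 501 and 453 on knockout-labelled arrays, against 506, 764 and 564 on wild-type arrays, with no overlap and a difference of -0.37 ± 0.23 (SE; limma adjusted p = 0.405, and 0.303 with the block). The 3 probe sets varied together over the 6 arrays, with correlations of 0.87 to 0.94. They read transcripts of the same gene on the same arrays and are not independent measurements. The size of the difference depended on single arrays: for the brightest probe set it was -0.53 without knockout-labelled array 5, -0.55 without wild-type array 7 and -1.0 without wild-type array 5 (limma adjusted p = 0.271, 0.341 and 0.0383).

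**Figure D3:**
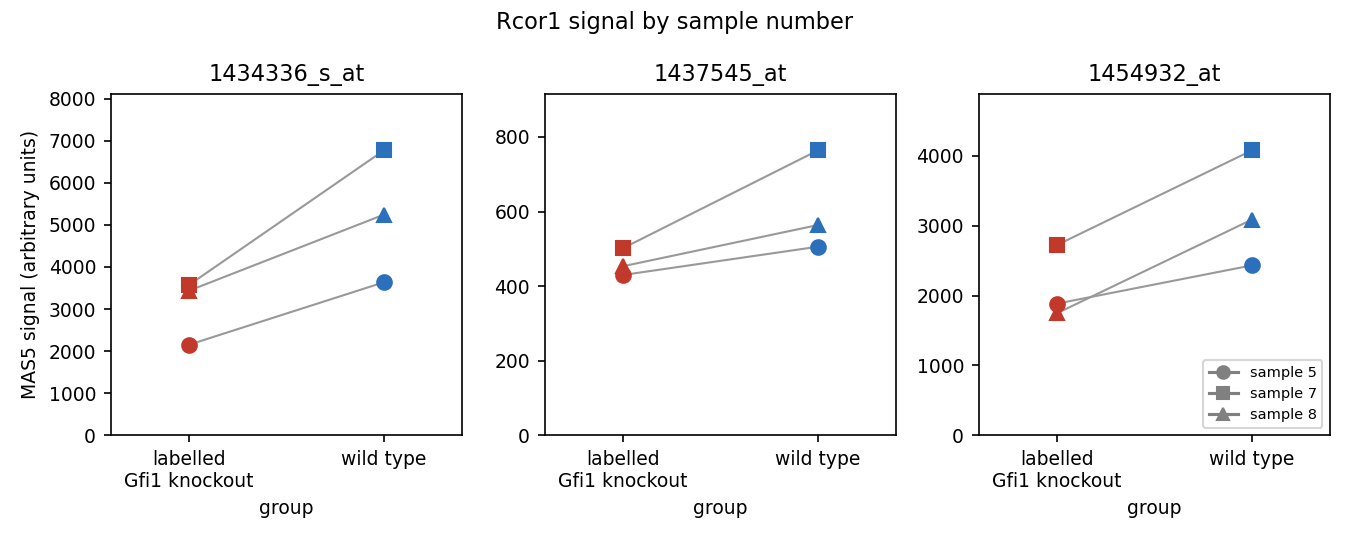
Signals of the 3 Rcor1 probe sets, with knockout-labelled samples on the left and wild-type samples on the right of each panel and a line joining samples of the same number. All 9 lines run to a higher wild-type value, and sample 7 has the brightest wild-type array in each panel.

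Other properties of the arrays are given here beside Rcor1. The 3′ to 5′ ratio of the Gapdh control, a measure of RNA and amplification quality, was 6.11, 4.30 and 4.43 on knockout-labelled arrays 5, 7 and 8, against 5.73, 4.44 and 5.64 on wild-type arrays 5, 7 and 8. The same ratio of the actin control was lower, at 1.31, 1.17 and 1.23 on knockout-labelled arrays, against 1.47, 1.15 and 1.16 on wild-type arrays. By either control, the array with the highest ratio in each group had the lowest signal of Rcor1 1434336_s_at, while the ratios of the groups overlapped. Some marker genes of mature cells also differed between the groups. Of 9 tested neutrophil markers 5 were lower and 1 higher, and the summed signal of the list's 10 measured genes was 7320 to 14700 on knockout-labelled arrays, against 20710 to 41980 on wild-type arrays. The 5 became 3 without knockout-labelled array 7 or 8 or wild-type array 5 or 7, 3 with eBayes without trend and 2 with no brightness filter. Of 8 tested monocyte and macrophage markers 4 were higher and 0 lower, with sums over 10 genes of 17650 to 23760 on knockout-labelled arrays, against 10550 to 15010 on wild-type arrays, and the 4 became 2 without knockout-labelled array 5 or 8 or with no brightness filter. Of 9 tested erythroid markers 0 were higher and 1 (Car2) was lower, with sums over 10 genes of 14030 to 14740 on knockout-labelled arrays, against 23650 to 38530 on wild-type arrays. Car2 made up much of that gap, with 3278 to 4924 on knockout-labelled arrays, against 12330 to 17040 on wild-type arrays. Of the 9 erythroid markers tested, 7 lay below 0 and 2 above it, with a median of -0.28. Car1 and Ermap stood at -1.22 ± 0.48 and -0.97 ± 0.44 (SE; limma adjusted p = 0.178 and 0.245), both brightest on wild-type array 8. Gata1 and Epor, the defining factor and receptor of the lineage, stood at 0.00 ± 0.23 and 0.05 ± 0.25 (SE). Summed mast cell and basophil markers ran from 8358 to 10930 on knockout-labelled arrays, against 5021 to 7493 on wild-type arrays (1 of 5 tested higher, Hdc, and 0 lower). The Hdc call was lost without knockout-labelled array 7 or 8 or wild-type array 7, with eBayes without trend and with no brightness filter. Summed dendritic cell markers ran from 9946 to 10480 on knockout-labelled arrays, against 13910 to 15440 on wild-type arrays (0 of 8 tested higher, 1 lower, Flt3). Flt3, which is also in the stem and progenitor list, made up much of that gap. It had 2030 to 2626 on knockout-labelled arrays, against 3976 to 6125 on wild-type arrays. Of the 8 dendritic cell markers tested, 6 lay below 0 and 2 above it. Each of these 5 lists had 0 genes that stayed at or below the control level on every array. The part of these markers and of RNA quality in the Rcor1 difference was not tested. In sorted bulk cells, fewer cells that express a gene and less RNA per cell cannot be told apart.

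Rcor3 (1425352_at, chr1:192098546-192138074), a paralogous CoREST scaffold, was close to the limit of what was tested. It had 299.8, 315 and 132 on knockout-labelled arrays 5, 7 and 8, against 194, 155 and 231 on wild-type arrays 5, 7 and 8. Knockout-labelled arrays 5 and 7 were the brightest of the 6 and knockout-labelled array 8 was the dimmest. The difference was 0.27 ± 0.35 (SE), with a 95% interval of -0.48 to 1.02 (limma adjusted p = 0.738), and it was 0.65 without knockout-labelled array 8. Its sign was opposite to that of Rcor1, but the difference between the 2 genes was not tested.

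The class I deacetylases all had fitted differences slightly above 0, and none passed the threshold. Hdac1 (1448246_at, chr4:129516104-129542646) had 3439, 3815 and 4082 on knockout-labelled arrays 5, 7 and 8, against 3298, 3476 and 3325 on wild-type arrays 5, 7 and 8. Its knockout-labelled samples were higher in every pair, by 0.06, 0.13 and 0.29, but knockout-labelled array 5 lay below wild-type array 7. The difference of 0.16 ± 0.16 (SE) had a 95% interval of -0.17 to 0.50, the narrowest of the 12 tested (limma adjusted p = 0.630). Hdac2 (1449080_at, chr10:36974297-37001889), which sits with Hdac1 in the CoREST, SIN3 and NuRD complexes, had 1298, 1356 and 1228 on knockout-labelled arrays, against 1312, 967 and 1184 on wild-type arrays. The groups overlapped, and the difference was 0.17 ± 0.19 (SE; 95% interval -0.24 to 0.58, limma adjusted p = 0.684).

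Hdac3 (1426437_s_at, chr18:37936971-37955015), the deacetylase of the NCoR and SMRT complexes, had 774, 983 and 880 on knockout-labelled arrays 5, 7 and 8, against 882, 645 and 535 on wild-type arrays 5, 7 and 8. It was higher in the knockout-labelled sample of pairs 7 and 8, by 0.60 and 0.70, and lower in that of pair 5, with a difference of -0.18. The fitted difference was 0.37 ± 0.23 (SE), with a 95% interval of -0.12 to 0.86 (limma adjusted p = 0.402). It ranged from 0.21 to 0.56 over the alternatives run, with limma adjusted p from 0.208 to 0.683.

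Ehmt2 (chr17:34898463-34914073), which encodes the histone methyltransferase G9a, had 1 bright and 1 dim probe set for the same transcript accession. The bright one, 1460692_at, had 4034, 3852 and 4834 on knockout-labelled arrays 5, 7 and 8, against 2669, 3999 and 4038 on wild-type arrays 5, 7 and 8. Only wild-type array 5 lay clearly below the rest, and the difference was 0.27 ± 0.19 (SE; 95% interval -0.14 to 0.68, limma adjusted p = 0.489). Without wild-type array 5 it was 0.07. The dim probe set, 1426888_at, had 16.9 to 20.2 on knockout-labelled arrays, against 14.7 to 17.5 on wild-type arrays. None of its 6 signals exceeded the brightest Bacillus control of the array, and it was not among the probe sets tested.

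Runx1t1 (chr4:13742628-13895056), which encodes the corepressor ETO, was not measured above the control level on any array. Probe set 1427640_a_at had 57.3, 4.18 and 21.0 on knockout-labelled arrays 5, 7 and 8, against 11.4, 25.4 and 12 on wild-type arrays 5, 7 and 8. Probe set 1448785_at had 63.4, 11.9 and 12.1 on knockout-labelled arrays, against 13.9, 51.2 and 5.99 on wild-type arrays. The controls reached 100.2 to 157.8 on knockout-labelled arrays, against 104.1 to 161.6 on wild-type arrays, so each signal has only an upper bound and no fold is given. These probe sets were below the brightness filter and were not among those tested.

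**Figure D4:**
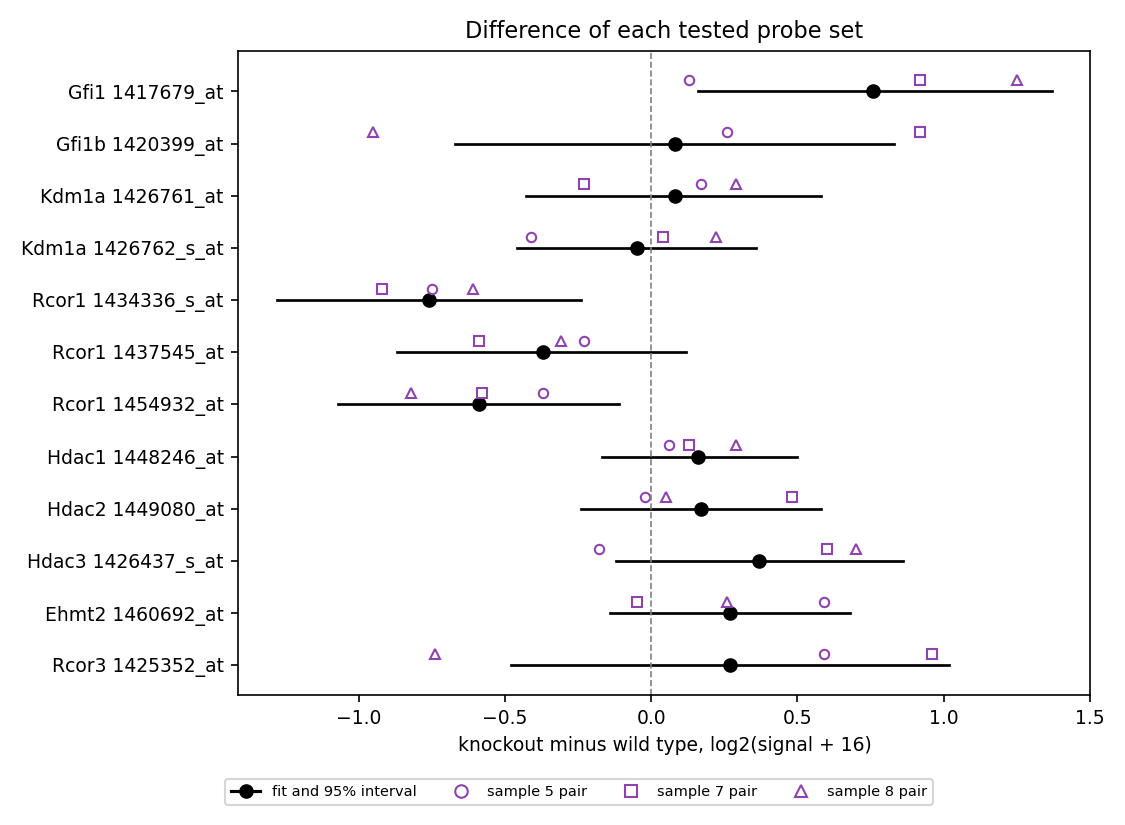
Fitted difference of each of the 12 tested probe sets, knockout-labelled minus wild type on the log2(signal + 16) scale, with its 95% interval (black) and the differences of the 3 numbered pairs (open symbols). The intervals of Gfi1 and of Rcor1 1434336_s_at and 1454932_at leave out 0, with no adjustment for the number of probe sets, and those of the others include it.

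The remaining subunits of the corepressor complexes were described by lists of related genes, each gene by its brightest probe set. Over all 8239 genes tested in this way 1.41% were higher and 2.49% lower, with a median of -0.01. Of 6 tested CoREST and LSD1-associated genes 0 passed in either direction, and the median was -0.25. Phf21a, the LSD1 complex subunit that reads unmethylated histone H3, had 326, 374 and 370 on knockout-labelled arrays 5, 7 and 8, against 691, 502 and 694 on wild-type arrays 5, 7 and 8. It did not overlap between the groups, at -0.78 ± 0.23 (SE; limma adjusted p = 0.0819). Rcor2, the third CoREST paralogue, also did not overlap, at -0.52 ± 0.25 (SE; limma adjusted p = 0.267). Ctbp2, a corepressor of the same complexes, stood at 0.34 ± 0.23 and Gtf2i at -0.22 ± 0.13 (SE; limma adjusted p = 0.454 and 0.390).

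Of 8 tested further deacetylases and sirtuins 0 passed, and the median was -0.37. Hdac7, a class IIa deacetylase of lymphoid cells, stood at -0.57 ± 0.19 without overlap, and the mainly cytoplasmic Sirt2 and Hdac6 stood at -0.79 ± 0.28 and 0.56 ± 0.22 (SE; limma adjusted p = 0.122, 0.133 and 0.180). Both tested ETO relatives of Runx1t1 lay below 0, with 0 past the threshold. Cbfa2t2 had 1644, 1636 and 1400 on knockout-labelled arrays 5, 7 and 8, against 1854, 2755 and 2593 on wild-type arrays 5, 7 and 8, a difference of -0.60 ± 0.19 without overlap (SE; limma adjusted p = 0.109). Cbfa2t3, known for its part in stem cell maintenance and erythroid differentiation, stood at -0.33 ± 0.24 (SE; limma adjusted p = 0.498).

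Among 20 tested SIN3, NCoR and NuRD subunits 1 was lower and 0 higher, with a median of -0.09. The 1 was Mta3, a NuRD subunit, which fell to 378, 353 and 663 on knockout-labelled arrays 5, 7 and 8, against 1177, 1135 and 931 on wild-type arrays 5, 7 and 8. Its difference was -1.24 ± 0.25 (SE; limma adjusted p = 0.0176), and its other probe set stood at -0.56 ± 0.23 (limma adjusted p = 0.199). The call of Mta3 was lost without knockout-labelled array 5, knockout-labelled array 7 or wild-type array 7, or with no brightness filter (limma adjusted p up to 0.0794). Arid4b and Tbl1x, subunits of SIN3 and NCoR complexes, did not overlap, at -0.60 ± 0.23 and -0.44 ± 0.21 (SE; limma adjusted p = 0.169 and 0.261). The NuRD subunits Mta1 and Mta2 did not overlap either, but in the other direction, at 0.33 ± 0.20 and 0.22 ± 0.17 (SE; limma adjusted p = 0.405 and 0.527). Of the 20 tested subunits, 7 lay above 0 and 13 below it. Among 9 tested genes of H3K9 methylation and its reading and removal 0 passed, with a median of -0.09. Kdm3a, a demethylase of that mark, stood at -0.79 ± 0.24 (SE; limma adjusted p = 0.0843). It passed with the sample number as a block and without wild-type array 8 (limma adjusted p = 0.0458 and 0.0416).

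Of 9 SNAG domain repressors in the list, 8 had a probe set and 1 was bright enough to be tested, with 0 past the threshold. Among 9 other tested Gfi1-binding proteins 0 passed, and the median was 0.04. Usp48, a deubiquitinase, stood at -0.51 ± 0.18 and Prmt1, an arginine methyltransferase, at 0.53 ± 0.24, both without overlap between the groups (SE; limma adjusted p = 0.132 and 0.237). Spi1, which encodes PU.1, had 809, 665 and 735 on knockout-labelled arrays 5, 7 and 8, against 634, 517 and 652 on wild-type arrays 5, 7 and 8. Its groups did not overlap, but the difference of 0.29 ± 0.21 did not pass (SE; limma adjusted p = 0.494).

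**Figure D5:**
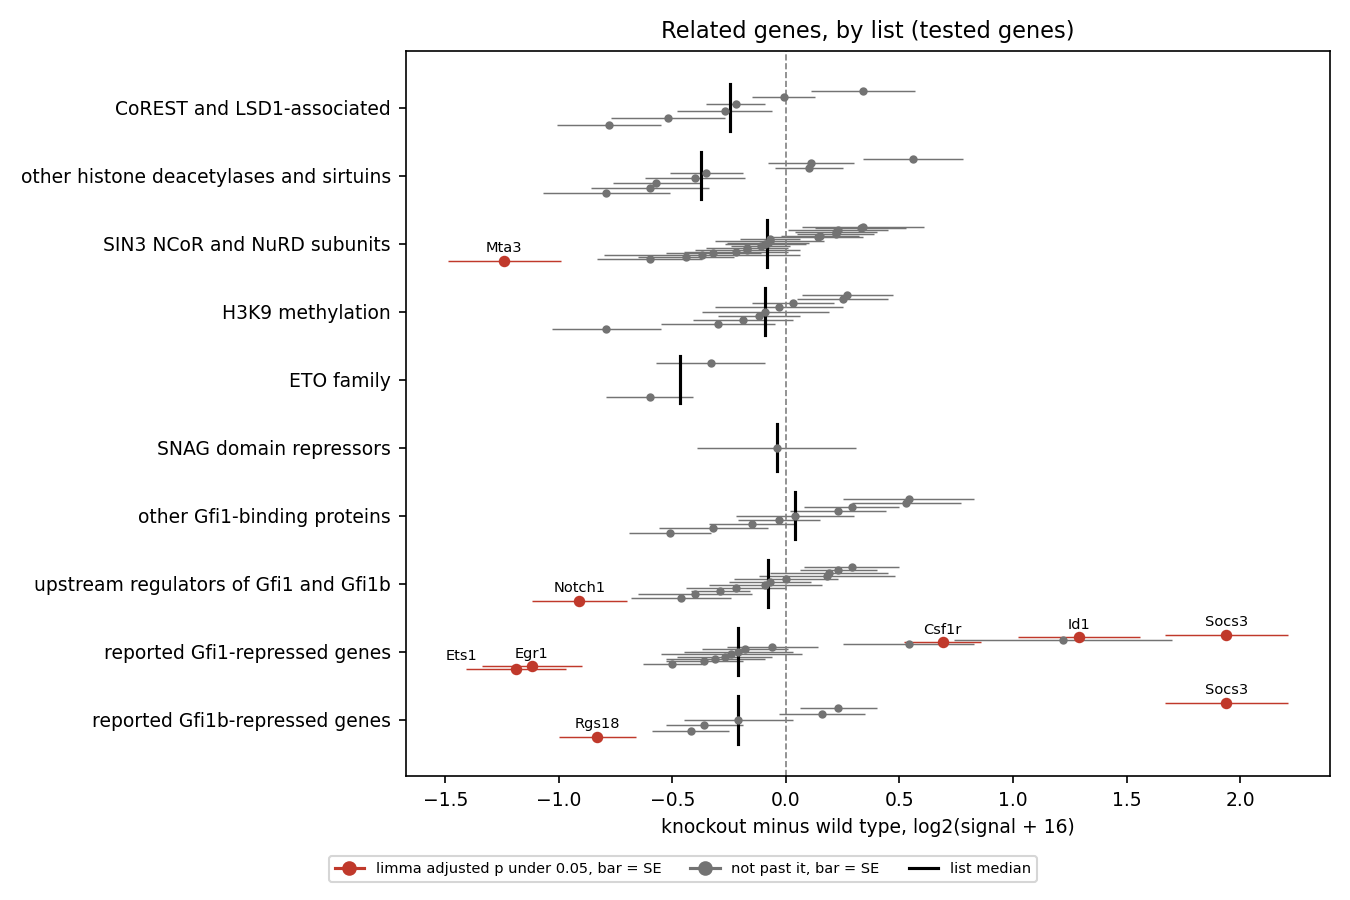
Differences of the tested genes of each list of related genes, knockout-labelled minus wild type on the log2(signal + 16) scale with SE bars, a line at each list's median and genes past the limma threshold in red with their names. The corepressor lists hold 1 called gene, Mta3, whereas calls in both directions stand in the list of genes reported to be repressed by Gfi1.

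Of 12 tested upstream regulators of Gfi1 and Gfi1b 1 was lower and 0 higher, with a median of -0.08. The 1 was Notch1, a receptor of lymphoid commitment, at -0.91 ± 0.21 (SE; limma adjusted p = 0.0334), whereas its dimmer probe set stood at 0.03 ± 0.29. The Notch1 call was lost with median centring, with eBayes without trend, without the brightness filter and when any 1 array other than wild-type array 8 was left out (limma adjusted p up to 0.15). Runx1, a stem cell transcription factor, stood at -0.46 ± 0.22 and Lmo2, an adaptor of stem cell transcription complexes, at -0.29 ± 0.13 (SE; limma adjusted p = 0.277 and 0.216). Cebpa, the granulocyte-monocyte factor, lay below the brightness filter. Its signals were 180.0, 132 and 340 on knockout-labelled arrays 5, 7 and 8, against 50.1, 45.4 and 83.6 on wild-type arrays 5, 7 and 8. Knockout-labelled array 7 and all 3 wild-type arrays did not exceed their Bacillus control, and in the fit without the filter the difference did not pass (limma adjusted p = 0.125).

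Genes reported to be repressed by Gfi1 did not move in 1 direction. Of 15 tested, 3 were higher and 2 lower, 5 lay above 0 and 10 below it, and the median was -0.21. Socs3, a feedback inhibitor of cytokine signalling, had 778, 636 and 1209 on knockout-labelled arrays 5, 7 and 8, against 186, 234 and 208 on wild-type arrays 5, 7 and 8. It rose by 1.94 ± 0.27 (SE; limma adjusted p = 0.00179), while its other probe sets stood at 1.04 ± 0.42 and 1.08 ± 0.34 (limma adjusted p = 0.188 and 0.0954). Id1, an inhibitor of helix-loop-helix factors, rose by 1.29 ± 0.27 and Csf1r, the M-CSF receptor, by 0.69 ± 0.17 (SE; limma adjusted p = 0.0209 and 0.0443). The other Csf1r probe sets rose by 1.13 ± 0.22 and 1.11 ± 0.21 (limma adjusted p = 0.0158 and 0.0133).

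Ets1, a transcription factor of lymphoid cells, fell to 265, 335 and 349 on knockout-labelled arrays 5, 7 and 8, against 809, 736 and 677 on wild-type arrays 5, 7 and 8. Its difference was -1.19 ± 0.22 and that of the immediate early gene Egr1 was -1.12 ± 0.22 (SE; limma adjusted p = 0.0120 and 0.0142). Of the other tested Ets1 probe sets, one also fell, at -1.15 ± 0.27, and the other stood at -0.33 ± 0.32 (limma adjusted p = 0.0324 and 0.633). Hoxa9 stood at -0.50 ± 0.13 and passed with the sample number as a block (SE; limma adjusted p = 0.0594, and 0.0295 with the block), while its other probe set stood at -0.02 ± 0.23 (limma adjusted p = 0.983). Elane stood at 1.22 ± 0.48, with overlap between the groups (SE; limma adjusted p = 0.175). Cebpa, described above and below the brightness filter, belongs to this list too. A stricter brightness filter left the Socs3, Id1 and Ets1 probe sets untested. Of the 5 calls, that of Socs3 held under each of the other alternatives run (limma adjusted p up to 0.0167). Those of Id1, Egr1 and the Csf1r probe set at 0.69 were lost without the brightness filter, those of Egr1 and Csf1r with eBayes without trend, and that of Csf1r with each of the other normalizations. The call of Ets1 was lost without wild-type array 7 (limma adjusted p = 0.0553), that of Id1 without knockout-labelled array 5 or 7 or wild-type array 7 (up to 0.0806), that of Egr1 without knockout-labelled array 7 or 8 or wild-type array 7 (up to 0.0923), and that of the Csf1r probe set at 0.69 without any 1 array except wild-type array 7 (up to 0.153).

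Of 7 tested genes reported to be repressed by Gfi1b 1 was higher (Socs3) and 1 lower, with a median of -0.21. The lower one was Rgs18, a regulator of G-protein signalling in platelets, which had 2638, 2773 and 3671 on knockout-labelled arrays 5, 7 and 8, against 5255, 5160 and 5641 on wild-type arrays 5, 7 and 8. It fell by 0.83 ± 0.17 on the log2 scale (SE; limma adjusted p = 0.0181), and its second probe set gave -0.83 ± 0.17 as well. Its call was lost with median centring, with eBayes without trend, and without knockout-labelled array 5 or 7 or wild-type array 7 (limma adjusted p up to 0.0735). Myb, a stem and progenitor factor, and Meis1, a cofactor of Hox proteins, stood at -0.42 ± 0.17 and -0.36 ± 0.17 without overlap between the groups (SE; limma adjusted p = 0.179 and 0.255). Of 5 tested megakaryocyte and platelet markers 0 passed, with summed signals of 3231 to 5030 on knockout-labelled arrays, against 2748 to 4842 on wild-type arrays.

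The genes whose log2 signals followed Gfi1 most closely over the 6 arrays were Rps27l, Sf3b2, Gtpbp4, Me2 and Ung, with Pearson correlations of 0.976 to 0.985. Of these, Me2 had 802, 1260 and 1742 on knockout-labelled arrays 5, 7 and 8, against 551, 614 and 754 on wild-type arrays 5, 7 and 8, and none of the 5 passed the threshold (limma adjusted p of 0.0762 for Me2). After the group means were removed, the closest were Tmem128, Ccdc137, Sepsecs, Tmem40 and Cklf, at 0.992 to 0.997. For Gfi1b the closest over the 6 arrays were Rap2b, Stard8, Agtrap, Rpp25l and a probe set of Cbx3, at 0.983 to 0.993, and 3 of these (Rap2b, Stard8 and Cbx3) were again among the 5 closest by deviations. For the brighter Kdm1a probe set, 1426762_s_at, they were Orc4, Prdx2, Lamtor5, Stim1 and Hspa4, at 0.976 to 0.992. The dimmer Kdm1a probe set did not vary with the brighter one, at a correlation of -0.41. These are the highest among the tested probe sets with 1 symbol, searched over only 6 arrays, and are given as descriptions.

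The label of the cells could be checked against only 1 of its 2 listed defining markers, Kit. Kit was above the control level on every array, with 3512, 4669 and 4496 on knockout-labelled arrays 5, 7 and 8, against 5871, 7052 and 7774 on wild-type arrays 5, 7 and 8, and it was lower in the knockout-labelled group by a difference of -0.71 ± 0.17 (SE; limma adjusted p = 0.0381). That call was lost with median centring, with eBayes without trend, with no brightness filter and when any 1 array other than wild-type array 5 was left out. No probe set was annotated to Ly6a alone, the gene that encodes Sca-1, so Sca-1 was not checked. Of 9 tested stem and progenitor markers 0 were higher and 2 lower, Flt3 at -1.19 ± 0.19 and Hlf at -1.26 ± 0.19 (SE; limma adjusted p = 0.00515 and 0.00268). Markers of mature cells were also measured: 9 of 10 neutrophil, 6 of 10 B and plasma cell and 1 of 9 T and NK cell markers with a probe set were bright enough to be tested. Jchain, the joining chain of secreted immunoglobulins, had 12270 to 22780 on knockout-labelled arrays, against 11750 to 20230 on wild-type arrays. Median signals were 285.7 to 330.3 on knockout-labelled arrays, against 317.5 to 335.0 on wild-type arrays. The share of probe sets brighter than every Bacillus control was 67.0% to 71.2% on knockout-labelled arrays, against 67.6% to 74.4% on wild-type arrays.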

How the data were processed

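Per the labels' protocols, LSK cells were sorted by flow cytometry and biotin-labelled cRNA was made by a 2-round amplification. The deposited intensity values are linear MAS5 signals, per the submitters' processing notes; their settings and version are not stated there. Signals were taken to log2(signal + 16) without renormalizing, and 64 AFFX controls were set aside. The brightest 60% of probe sets by mean log2 signal were tested with limma 3.58.1 in R 4.3.3 (eBayes with trend, two-sided, Benjamini-Hochberg adjustment over 13575 probe sets, threshold 0.05), and the script was tested on simulated data. The control level is the brightest of 27 Bacillus probe sets on each array. The SEs and intervals of the fitted differences use the variances moderated by eBayes, as the p-values do. The number of arrays limits the precision.

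Probe sets were named from the platform annotation where it gave 1 symbol. Promoter entries of members on chromosome 18, where Hdac3 lies, were left out, and 7 of the 10 genes matched a RefSeq promoter entry. Same-numbered samples of the 2 groups deviated together from their group means, with correlations of 0.159, 0.168 and 0.238 (numbers 5, 7 and 8), so the numbers were taken as a pairing; because deviations cancel within a group, different numbers are negative (-0.134 to -0.0307). The genes and lists were chosen from general knowledge with earlier results of these data known. From each list the text names genes past the threshold and some of the up to 4 next by p. Mta2 and some cell type markers are named besides these. Alternatives were 2 other pseudocounts, 2 filters, 3 normalizations, no trend, the block and each array left out.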

Additional observations from a re-analysis of the deposited data

How the results depend on the processing

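The 12 tested probe sets kept 0 calls in each direction under every alternative except 3: 1 lower with the replicate block (Rcor1 1434336_s_at), 1 lower without wild-type array 5 (the same probe set), and 1 higher without knockout-labelled array 5 (Gfi1), so that the counts ran from 0 to 1 over the fits with 1 array left out. Over all probe sets the 196 higher and 297 lower calls became 320 and 479 with the replicate block. Testing every probe set left 69 higher and 119 lower, and eBayes without trend left 57 higher and 124 lower. Median centring gave 193 lower calls. With 1 array left out there were 34 to 266 higher and 90 to 282 lower calls. The sign turned for 3 of the 12 tested probe sets: Gfi1b at -0.19 and -0.27 without knockout-labelled array 5 and wild-type array 7, Kdm1a 1426761_at at -0.03 without wild-type array 5, and Kdm1a 1426762_s_at at 0.01 with median centring and at 0.02 and 0.06 without knockout-labelled array 5 and wild-type array 5. With 1 array left out the differences ran from -0.27 to 0.43 for Gfi1b, from -0.03 to 0.26 for Kdm1a 1426761_at, and from -0.15 to 0.06 for Kdm1a 1426762_s_at. The 3 probe sets not above the control on any array (both of Runx1t1 and 1 of Ehmt2) have only a bound, so no difference was given for them under any alternative. The cause was not tested. Rcor1 1434336_s_at stayed below 0 throughout, from -1.0 to -0.53, with limma adjusted p from 0.0172 to 0.341, and Gfi1 stayed above 0, from 0.45 to 1.10. Among the members and the genes of the related lists, cell type markers aside, the block changed the calls of Rcor1 1434336_s_at, Kdm3a and Hoxa9.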
